A study of Mus musculus with 12 samples.

Results

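The mouse genes Ins1, Ins2 and Iapp were followed through pancreatic islet RNA of Tg7 and wild-type (Wt) mice. They were found in the count table by the Ensembl identifiers that map to these symbols, and they are 3 of its 37991 genes. Tg7 mice overexpress the microRNA miR-7 in β-cells, and the Wt mice were their littermates. Islets were taken at 2 weeks (2w) or 12 weeks (12w) of age, which gave 4 groups (2w Wt, 2w Tg7, 12w Wt and 12w Tg7) of 3 libraries each. All mice were labelled male and C57BL/6, their islets were freed from the pancreas with Liberase, and each library was made from a pool of at least 3 animals. The younger Tg7 mice are the prediabetic stage of this model and the older ones the diabetic stage. The sources used here do not name the promoter of the transgene. The table does not check the transgene either, since the hairpin row Mir7-2 held 0 to 13 counts per library and the mature microRNA is not read by libraries of this kind. Libraries are pools, so every p-value below measures the spread between pools and not between mice. Libraries held 11610697 to 17515758 counts, and the lowest count of any of the genes in a library was 96734, so counting error was small beside the spread between libraries.

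Mice carry a pair of insulin genes. Ins2 has the exon structure of insulin genes in other mammals, and Ins1 is a copy that arose by retroposition and lost an intron. Both encode preproinsulin, which enters the endoplasmic reticulum, loses its signal peptide, folds by forming disulphide bonds and is cut to insulin and C-peptide inside secretory granules. Iapp encodes amylin (islet amyloid polypeptide), a hormone that is packed into the same granules and released together with insulin. All of them are made chiefly by β-cells, the insulin-producing cells of the islet. In islet RNA, fewer β-cells and less RNA per β-cell cannot be told apart.

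On assembly NCBIM37 (mm9), Ins1 (ENSMUSG00000035804) lies on chromosome 19, from 52338813 to 52339946 on the plus strand, with 1 annotated transcript of 2 exons. Ins2 (ENSMUSG00000000215) lies on chromosome 7, from 149864561 to 149885415 on the minus strand, and has 8 annotated transcripts, of which the main one has 3 exons and 478 bases. Iapp (ENSMUSG00000041681) lies on chromosome 6, from 142246943 to 142252481 on the plus strand, and its main transcript has 3 exons. No exon of these genes overlaps an exon of another gene, although the span of Iapp overlaps that of Slco1a5.

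The coding sequences of the insulin genes are close enough that it matters whether reads of Ins1 and Ins2 can be told apart. They are 327 and 333 bases long, and 302 of 333 aligned positions (90.7%) are identical. The stretch of 90 alignment columns in which they are most alike differs at 2 positions and covers bases 98 to 187 of each coding sequence. It is shown in lower case, with the differing bases in capitals, as annotated on NCBIM37.
Ins1: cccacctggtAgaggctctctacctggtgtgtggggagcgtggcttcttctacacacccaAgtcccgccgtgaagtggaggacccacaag
Ins2: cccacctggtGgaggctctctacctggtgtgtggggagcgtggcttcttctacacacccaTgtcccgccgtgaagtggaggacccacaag
The stretch of 90 columns in which they differ most starts at base 187 of each coding sequence, and there 15 columns differ, 6 of them because Ins1 lacks a base. Capitals again mark differing bases.
Ins1: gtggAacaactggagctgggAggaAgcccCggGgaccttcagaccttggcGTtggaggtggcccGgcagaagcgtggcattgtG
Ins2: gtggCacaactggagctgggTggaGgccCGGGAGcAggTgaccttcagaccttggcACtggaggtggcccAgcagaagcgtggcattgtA
Reads were 100 bases long before trimming. None of the 917 windows of 100 bases in the Ins1 transcript came within 2 mismatches of an Ins2 transcript, and the closest pair differed by 3. Trimmed reads can be shorter, and the stretch of 90 columns above differs at only 2 positions. Shorter windows were not searched. The sources used here do not say how reads with more than 1 alignment were counted, so an exchange of reads between the insulin genes was not tested.

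Ins1 was lower in Tg7 than in Wt islets at both ages, with the larger estimated fold at 12w. Expression is given as CPM, the counts of a gene per 1000000 counts of the library, after scaling with edgeR's TMM factors. In 2w Wt islets Ins1 had 45353, 31169 and 28442 CPM, and in 2w Tg7 islets it had 9361, 15235 and 5729 CPM. In 12w Wt islets it had 127146, 87559 and 43794 CPM, and in 12w Tg7 islets 6565, 5352 and 6029 CPM. All Tg7 libraries lay below all Wt libraries of their age, and the lowest 12w Wt library, replicate 4, was still far above every 12w Tg7 library. The group means were 34988 ± 9079 and 10108 ± 4797 CPM at 2w, and 86166 ± 41693 and 5982 ± 608 CPM at 12w (SD, n = 3). By edgeR's quasi-likelihood test, with Benjamini-Hochberg adjustment over 15961 tested genes, Ins1 was 3.46-fold lower in Tg7 islets at 2w (log2 fold change −1.79, SE 0.38, adjusted p = 0.00931). At 12w it was 14.4-fold lower (log2 fold change −3.85, SE 0.42, adjusted p = 2.51e-05).

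Ins2 was also lower in Tg7 islets at both ages, with the larger estimated fold at 2w. Ins2 had 113920, 69473 and 65989 CPM in 2w Wt islets, against 12679, 21898 and 9740 CPM in 2w Tg7 islets. At 12w it had 311816, 250477 and 126762 CPM in Wt islets and 71170, 69139 and 70589 CPM in Tg7 islets. The groups did not overlap at either age, and the 12w Tg7 libraries were nearly level with each other. The means were 83128 ± 26724 and 14772 ± 6343 CPM at 2w, and 229685 ± 94263 and 70300 ± 1046 CPM at 12w (SD, n = 3). Ins2 was 5.63-fold lower in 2w Tg7 islets (log2 fold change −2.49, SE 0.37, edgeR adjusted p = 9.39e-04). At 12w it was 3.27-fold lower (log2 fold change −1.71, SE 0.36, edgeR adjusted p = 0.00402).

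Iapp did not pass the test at either age. It had 18087, 13681 and 13965 CPM in 2w Wt islets and 13363, 14781 and 11450 CPM in 2w Tg7 islets. At 12w it had 38974, 25634 and 23667 CPM in Wt islets and 27113, 24971 and 24753 CPM in Tg7 islets. The Wt and Tg7 libraries overlapped at both ages. The means were 15245 ± 2466 and 13198 ± 1672 CPM at 2w, and 29425 ± 8328 and 25612 ± 1304 CPM at 12w (SD, n = 3). The log2 fold change of Iapp was −0.21 at 2w (SE 0.21, 95% interval −0.66 to 0.25, edgeR adjusted p = 0.575). At 12w it was −0.20 (SE 0.21, 95% interval −0.65 to 0.25, edgeR adjusted p = 0.553), and it was 0.28 when counts were scaled by library size alone and 0.03 without 12w Wt replicate 1. These intervals do not exclude a modest change in either direction.

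**Figure D1:**
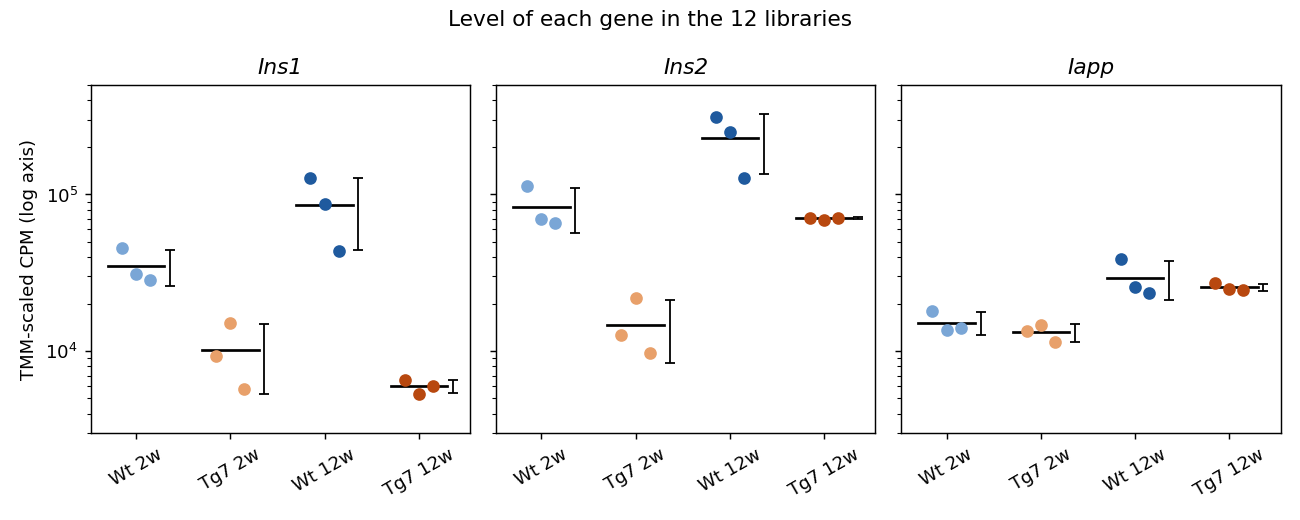
TMM-scaled CPM of Ins1, Ins2 and Iapp in each library on a log axis, by group; horizontal lines are group means and the bars beside them are 1 SD (n = 3). Ins1 and Ins2 lay lower in every Tg7 library than in every Wt library of the same age, while the Iapp libraries of the 2 genotypes overlapped.

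Thus 2 of the 3 genes were called lower at each age. Over all 15961 tested genes, 4.55% were called lower at 2w and 11.2% at 12w. Ordered from the lowest log2 fold change upwards, Ins1 ranked 117 at 2w and 24 at 12w, Ins2 ranked 53 and 209, and Iapp ranked 4118 and 5428. Scaling by library size alone moved the median log2 fold change of all tested genes from 0.03 to 0.19 at 2w and from −0.01 to 0.43 at 12w. Under that scaling Ins1 changed by −1.63 at 2w and −3.35 at 12w, and Ins2 by −2.33 and −1.22, all called.

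The genes were among those with the most counts in the islet. In 2w Wt islets Ins1, Ins2 and Iapp together took 13.6% ± 3.06 of all counts, and in 2w Tg7 islets 4.37% ± 1.27 (SD, n = 3). In 12w Wt islets they took 26.2% ± 8.25, and in 12w Tg7 islets 10.9% ± 0.0391 (SD, n = 3). Wt and Tg7 libraries did not overlap at either age, which for 3 against 3 gives the smallest p of an exact permutation test, 0.1 (two-sided, adjusted p = 0.145 over 16 tests of shares). By counts, not corrected for length, Ins2 ranked first in every Wt library and in every 12w Tg7 library. In 2w Tg7 islets it ranked 2 or 3, and Gcg, the gene of the α-cell hormone glucagon, was first with 5.07%, 8.48% and 5.77% of the counts. Iapp kept between 1.36% and 1.75% of the counts in all 2w libraries and between 2.05% and 2.82% in all 12w libraries. Ins1 held 3.81% to 8.69% of the counts of 12w Wt islets but 0.583% to 0.682% of those of 12w Tg7 islets, where it ranked 7 or 8.

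**Figure D2:**
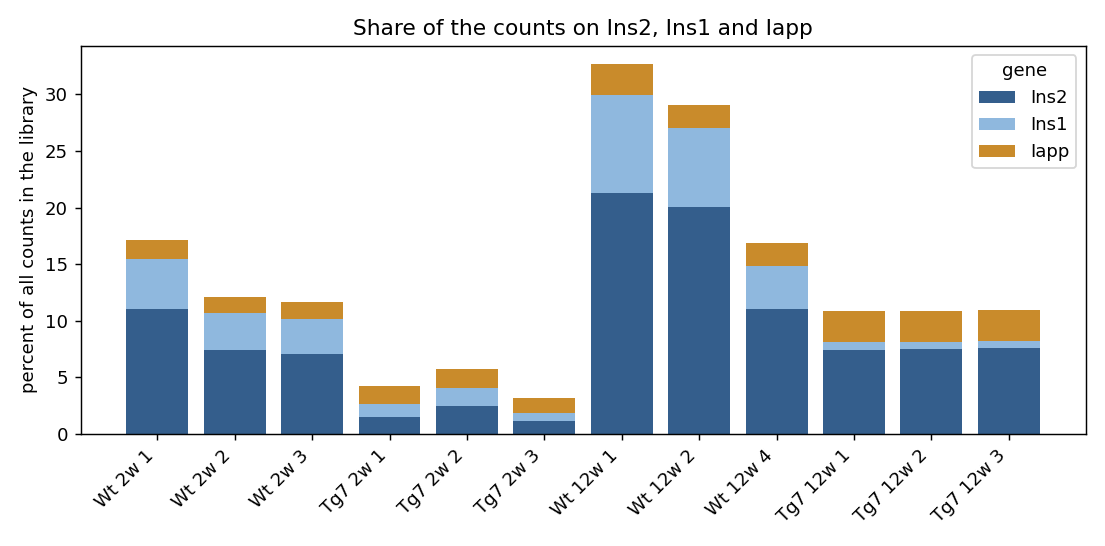
Percent of all counts of each library that fell on Ins2, Ins1 and Iapp, stacked from bottom to top. The summed share ran from 11.6 to 17.2 in 2w Wt, from 3.19 to 5.72 in 2w Tg7, from 16.9 to 32.7 in 12w Wt and from 10.8 to 10.9 in 12w Tg7 libraries.

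The ratio of Ins1 to Ins2 within a library does not depend on how libraries are scaled. For every 100 counts of Ins2 there were 39.8, 44.9 and 43.1 counts of Ins1 in 2w Wt islets and 73.8, 69.6 and 58.8 in 2w Tg7 islets. At 12w there were 40.8, 35.0 and 34.5 in Wt islets and 9.22, 7.74 and 8.54 in Tg7 islets. Relative to Ins2, Ins1 was thus higher in every 2w Tg7 library and lower in every 12w Tg7 library than in the Wt libraries of that age. The log2 ratio of Ins1 to Ins2 differed by 0.66 between Tg7 and Wt at 2w (1.58-fold higher) and by −2.11 at 12w (4.32-fold lower). Each reached the smallest p that an exact permutation test of 3 against 3 allows (p = 0.1, adjusted p = 0.136 over 15 tests of ratios). The effect at 12w minus that at 2w was −2.77 on the log2 scale, a 6.82-fold difference, and between −2.86 and −2.69 with 1 library left out in turn. This difference of ratios was worked out after the data were seen and is given as a description.

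Fitted over all genes, the same model also gave this difference of effects for each gene alone. The Tg7 effect on Ins1 at 12w minus that at 2w was −2.06 on the log2 scale (SE 0.53, 95% interval −3.20 to −0.91, edgeR adjusted p = 0.0824). It passed with DESeq2 (−2.07, adjusted p = 0.0252), without the expression filter (−2.03, adjusted p = 0.00811), with replicate number as a block (−2.17, adjusted p = 0.0246) and without 12w Wt replicate 4 (−2.37, adjusted p = 0.0113). As in the main fit, it was not called in 5 of 8 other settings and in 11 of 12 fits with a library left out. For Ins2 the difference was 0.78 (SE 0.50, 95% interval −0.29 to 1.86, edgeR adjusted p = 0.513), and for Iapp it was 0.01 (SE 0.30, 95% interval −0.63 to 0.65, edgeR adjusted p = 0.996), a value whose sign changed in several alternatives. Over all tested genes, 1.18% were called for this difference.

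Iapp rose relative to each insulin gene. For every 100 counts of Ins2 there were 15.9, 19.7 and 21.2 counts of Iapp in 2w Wt islets and 105, 67.5 and 118 in 2w Tg7 islets. At 12w there were 12.5, 10.2 and 18.7 in Wt and 38.1, 36.1 and 35.1 in Tg7 islets. Every Tg7 library lay above every Wt library at both ages, and in 2 of the 2w Tg7 libraries Iapp had more counts than Ins2, although not more per length of exon. Over both ages, the ratio of Iapp to Ins2 was 3.70-fold higher in Tg7 islets, 5.02-fold at 2w and 2.72-fold at 12w. The exact permutation test within ages gave p = 0.005, the smallest possible, for this mean difference (adjusted p = 0.0375). Without overlap at either age, the pattern of the libraries fixes this p, so it adds nothing to that pattern. The ratio of Iapp to Ins1, also without overlap, was 6.12-fold higher over both ages, 3.18-fold at 2w and 11.8-fold at 12w. Its exact permutation test gave p = 0.005, likewise fixed (adjusted p = 0.0375). Taken within replicate numbers, which leaves out 12w Wt replicate 4 and 12w Tg7 replicate 3, the mean differences of 5 pairs were 2.08 and 2.55 on the log2 scale. Both had p = 0.0625, the smallest that exact sign changes of 5 pairs allow.

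**Figure D3:**
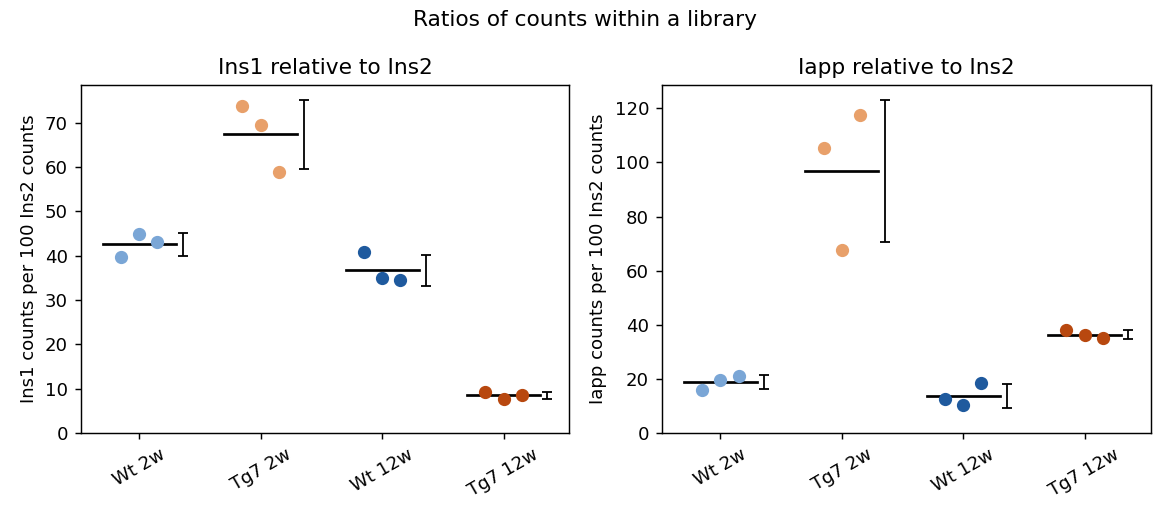
Counts of Ins1 (left) and of Iapp (right) per 100 counts of Ins2 in each library, by group; lines are means and bars 1 SD (n = 3). Ins1 relative to Ins2 was highest in 2w Tg7 (58.8 to 73.8) and lowest in 12w Tg7 (7.74 to 9.22), and Iapp relative to Ins2 was above Wt in all Tg7 libraries.

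The shares and ratios above are of counts, which longer transcripts raise. For levels, the genes were set side by side per length of exon. Per kilobase of all annotated exons, the mean level of Ins2 was 2.98 times that of Ins1 in 2w Wt islets, 1.83 times in 2w Tg7, 3.34 times in 12w Wt and 14.7 times in 12w Tg7 islets. Per kilobase of the main transcript these ratios were 5.05, 3.11, 5.67 and 24.98, so the order of the groups did not depend on the length used. On the exon scale, Ins1 was 2.20 times Iapp in 2w Wt and 2.81 times in 12w Wt islets, but 0.734 times in 2w Tg7 and 0.224 times in 12w Tg7 islets. The order of the genes was therefore Ins2, Ins1, Iapp in Wt islets and Ins2, Iapp, Ins1 in Tg7 islets.

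In Wt islets Ins1, Ins2 and Iapp were all called higher at 12w than at 2w. Ins1 rose 2.46-fold (log2 fold change 1.30, SE 0.38, edgeR adjusted p = 0.0325), Ins2 rose 2.76-fold (1.47, SE 0.36, adjusted p = 0.0140) and Iapp rose 1.93-fold (0.95, SE 0.21, adjusted p = 0.00848). Over all tested genes, 7.90% were called higher with age in Wt islets and 7.91% lower. The Ins1 libraries of the ages overlapped, since 12w Wt replicate 4 (43794 CPM) lay just below the highest 2w library (45353 CPM). The rise of Ins1 was not called without 12w Wt replicate 1 (0.92) or 2 (1.28), 2w Wt replicate 2 (1.22) or 3 (1.17) or 12w Tg7 replicate 1 (1.28), nor with library size alone (0.86). That of Ins2 was not called without 2w Wt replicate 2 (1.35) or 3 (1.32). In a fit of the Wt libraries alone none of the rises was called (Ins1 1.28, adjusted p = 0.101; Ins2 1.44, adjusted p = 0.0822; Iapp 0.92, adjusted p = 0.0940). With library size alone the rise of Iapp was 0.53.

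In Tg7 islets Ins2 and Iapp rose with age and Ins1 did not pass the test. Ins2 rose 4.76-fold between 2w and 12w (log2 fold change 2.25, SE 0.37, edgeR adjusted p = 0.00127), and its ages did not overlap. The log2 fold change of Ins1 was −0.76 (SE 0.38, 95% interval −1.56 to 0.05, adjusted p = 0.213), with overlapping libraries, and −0.33 without 2w Tg7 replicate 2. Iapp rose 1.94-fold (0.96, SE 0.21, adjusted p = 0.00918), against 1.93-fold in Wt islets, and with library size alone the values were 0.84 and 0.53 on the log2 scale. Over all tested genes, 7.02% were called higher with age in Tg7 islets and 6.01% lower. The ratio of Ins1 to Ins2 fell 7.91-fold with age in Tg7 islets (exact permutation p = 0.1, the smallest possible, no overlap), while in Wt islets it was 1.16-fold lower with overlapping libraries (exact permutation p = 0.2). Set in order of their mean level, the groups were 12w Wt, 2w Wt, 2w Tg7, 12w Tg7 for Ins1, where the libraries of the last pair overlapped. For Ins2 the order was 12w Wt, 2w Wt, 12w Tg7, 2w Tg7, and the 2w Wt and 12w Tg7 libraries overlapped. For Iapp it was 12w Wt, 12w Tg7, 2w Wt, 2w Tg7, and the genotypes overlapped within each age.

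**Figure D4:**
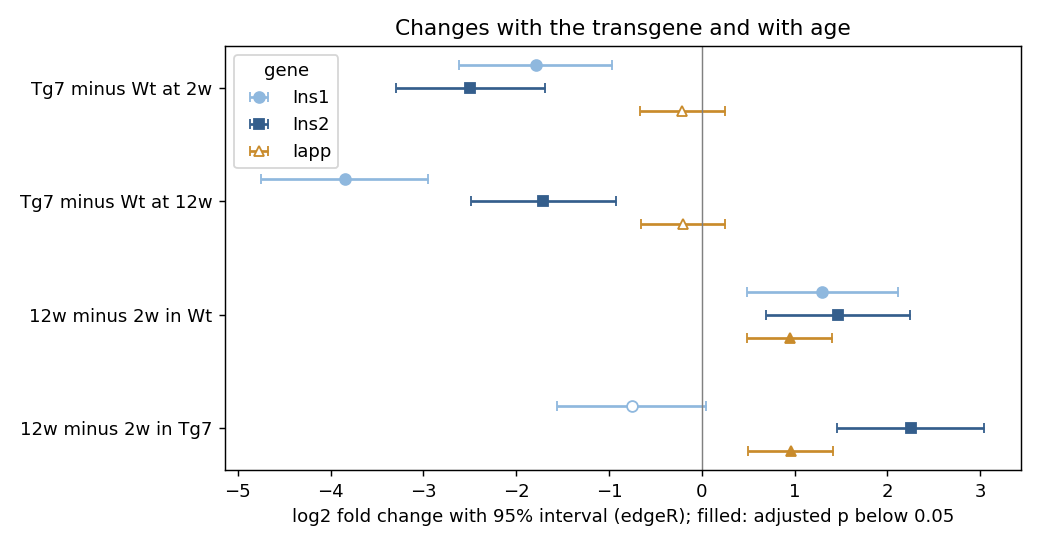
Log2 fold changes of Ins1, Ins2 and Iapp with the transgene at each age and with age in each genotype, from edgeR, with 95% intervals; filled symbols have an adjusted p below 0.05. The transgene effects of Ins1 (−1.79 and −3.85) and Ins2 (−2.49 and −1.71) were called and those of Iapp (−0.21 and −0.20) were not, and in Tg7 islets Ins2 rose with age while the interval of Ins1 reached 0.

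Transcription of the insulin genes is known to depend on a small set of β-cell factors, among them Pdx1, Mafa and Neurod1, which bind the proximal promoter. Pdx1 and other homeodomain proteins bind a TAAT core, and Neurod1 binds E-boxes such as CATCTG together with E proteins. The 250 bases upstream of the transcription start are shown for Ins1 and Iapp, the members with a RefSeq promoter sequence here (GRCm38.p6), because the levels of these factors are described next. Capitals mark TAAT or its complement ATTA, and CATCTG. The Ins1 sequence is chr19:52264047-52264296 and the Iapp sequence is chr6:142298175-142298424, both on the plus strand.
Ins1: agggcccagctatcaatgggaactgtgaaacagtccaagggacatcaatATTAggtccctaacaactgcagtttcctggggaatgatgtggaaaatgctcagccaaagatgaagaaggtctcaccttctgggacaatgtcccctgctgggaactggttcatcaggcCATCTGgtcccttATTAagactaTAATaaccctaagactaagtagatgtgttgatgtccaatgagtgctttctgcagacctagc
Iapp: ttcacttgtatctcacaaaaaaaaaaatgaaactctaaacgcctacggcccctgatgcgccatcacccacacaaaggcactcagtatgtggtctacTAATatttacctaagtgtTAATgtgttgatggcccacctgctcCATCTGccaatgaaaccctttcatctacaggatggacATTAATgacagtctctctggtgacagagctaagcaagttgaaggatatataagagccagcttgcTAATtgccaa
In the whole RefSeq window, which runs on for 50 bases past the start, Ins1 had 3 matches of TAAT on either strand and Iapp had 5, of which a pair overlapped. Of 32851 such windows, 58.0% held TAAT, 20.04% at least as often as Ins1 and 6.86% at least as often as Iapp. CATCTG, also searched on both strands, occurred 2 times in the Ins1 window, at −84 and at 43 relative to the start, and 1 time in that of Iapp, at −111. It occurred in 17.2% of all windows, and 2 or more times in 1.83%. These are matches of letters and not measured binding sites.

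Of 19 insulin gene transcription factors in the table, 17 were tested, and 4 were called lower and none higher in 2w Tg7 islets (median log2 fold change −0.20, against 0.03 for all genes, of which 4.55% were called lower and 6.07% higher). At 12w 3 were lower and 3 higher (median −0.10, against −0.01 for all genes, of which 11.2% were called lower and 12.5% higher), and with library size alone 1 was lower and 5 higher. Mafa, an activator of insulin transcription in mature β-cells, fell from 214 ± 34.8 to 7.79 ± 0.779 CPM at 2w (log2 fold change −4.78, edgeR adjusted p = 1.02e-05) and from 129 ± 72.1 to 3.98 ± 0.529 CPM at 12w (−5.02, adjusted p = 2.41e-06; SD, n = 3). Pdx1, needed for β-cell identity, fell at 2w (log2 fold change −1.30, adjusted p = 0.00149) and stood at −0.47 at 12w (adjusted p = 0.117). Neurod1 had −0.43 at 2w (adjusted p = 0.0531) and fell at 12w (−0.74, adjusted p = 0.00121). Nkx6-1, a repressor of other endocrine fates, fell at 2w (−0.91) and at 12w (−0.37, adjusted p = 0.0448), and the zinc finger factor Insm1 fell at 2w (−0.72, adjusted p = 0.0133). At 12w Rfx6, a factor of islet development (0.72, adjusted p = 0.00728) and the E protein gene Tcf3 (0.55, adjusted p = 0.00975) were higher.

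Of 15 genes of prohormone processing and the granule, all tested, 4 were lower and 1 higher in 2w Tg7 islets (median −0.19), and 2 were lower and 4 higher at 12w (median 0.04). Over all genes 4.55% were lower and 6.07% higher at 2w, and 11.2% and 12.5% at 12w. With library size alone the 2w counts were 2 lower and 2 higher. Pcsk1, the convertase that makes the first cut in proinsulin, fell from 393 ± 24.5 to 121 ± 27.1 CPM at 2w (−1.70, edgeR adjusted p = 0.00253) and had 437 ± 249 and 284 ± 5.71 CPM at 12w (−0.63, adjusted p = 0.135; SD, n = 3). Pcsk2, which makes the other cut, and Cpe, the carboxypeptidase that trims the ends, did not pass at either age (log2 fold changes from −0.12 to 0.10). The granule peptide gene Vgf fell at 2w (−1.18, adjusted p = 0.0188) and at 12w (−1.85, adjusted p = 5.35e-04), and Pcsk1n, which encodes an inhibitor of Pcsk1, rose at 2w (0.57, adjusted p = 0.0385), a call that was lost when Ins1, Ins2 and Iapp were left out of the scaling. At 12w the zinc transporter gene Slc30a8, which loads the granule with the zinc that crystallises insulin, fell from 577 ± 77.7 to 200 ± 17.9 CPM (−1.53, adjusted p = 3.93e-06). Chgb, a granin of the granule matrix, rose from 1356 ± 472 to 7018 ± 1163 CPM at 12w (2.37, adjusted p = 1.08e-05), and so did Pam, the enzyme that amidates amylin (0.81, adjusted p = 0.00291).

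Of 27 tested genes of preproinsulin translocation and folding, 14 were lower and 1 higher in 2w Tg7 islets (median −0.55), where 4.55% of all genes were lower and 6.07% higher. At 12w 4 were lower and 2 higher (median −0.09), where 11.2% and 12.5% of all genes were. The 12w split turned to 2 lower and 10 higher with library size alone, while that at 2w was 10 lower and 1 higher. Ero1lb, a β-cell oxidase that drives disulphide formation in proinsulin, fell at both ages, from 960 ± 85.1 to 181 ± 25.5 CPM at 2w (−2.41, edgeR adjusted p = 5.63e-06) and from 1666 ± 461 to 296 ± 9.18 CPM at 12w (−2.49, adjusted p = 9.53e-07; SD, n = 3). The ER chaperone partner Sdf2l1 fell at 2w (−2.002, adjusted p = 4.35e-04) and had −0.43 at 12w (adjusted p = 0.261). The disulphide isomerase genes Pdia4 (−1.25) and Pdia6 (−1.13) fell at 2w and had −0.32 and −0.10 at 12w, neither called. Sec61a1, the channel through which preproinsulin enters the ER, fell at 2w (−0.84) and at 12w (−0.80, adjusted p = 2.18e-04), as did the oxidase gene Ero1l (−0.90 and −1.09). Prdx4, an ER peroxidase, was higher at 2w (1.02, adjusted p = 0.00113) and at 12w (1.91, adjusted p = 2.81e-06). With age, 11 of the 27 were called higher in Wt islets (median 0.38) and 22 in Tg7 islets (median 0.80), and none lower, where 7.90% and 7.02% of all genes were called higher. With library size alone 2 were higher and 1 lower in Wt islets and 15 higher and none lower in Tg7 islets, where 2.04% and 4.04% of all genes were called higher and 23.8% and 6.65% lower, a setting added after the data were seen.

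Of 10 tested genes for receptors and degradation of insulin and amylin, 2 were lower and 1 higher at 2w (median −0.36, with 4.55% and 6.07% over all genes), and 3 were lower and 1 higher at 12w (median −0.27, with 11.2% and 12.5% over all genes). With library size alone 1 was lower and 3 were higher at 12w. Ramp1, whose product turns the calcitonin receptor into an amylin receptor, rose from 9.36 ± 0.401 to 34.3 ± 3.15 CPM at 2w (1.87, edgeR adjusted p = 1.17e-04) and from 11.3 ± 3.57 to 40.8 ± 8.31 CPM at 12w (1.83, adjusted p = 4.36e-05; SD, n = 3). Calcr, the gene of that receptor, held 0 to 2 counts per library and was not tested. The insulin receptor gene Insr had log2 fold changes of 0.20 and −0.08, and Ide, an insulin-degrading enzyme, −0.77 and −0.50, none called. Igf1r, the receptor gene of insulin-like growth factor, fell at 2w (−1.42) and at 12w (−1.83), as did Irs1, an adaptor of both receptors (−0.93 and −0.53), and Sorl1, a sorting receptor, fell at 12w (−0.86, adjusted p = 0.0105).

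Most of the other β-cell genes listed were called lower, like the insulin genes and unlike Iapp. The list was chosen with earlier results of these data known, so its counts are a description of the listed genes only. Of 18 tested, 12 were lower and 1 higher at 2w (median −1.42), and 11 were lower and 1 higher at 12w (median −1.64, with library size alone 9 lower and 3 higher). Over all genes 4.55% were lower and 6.07% higher at 2w, and 11.2% and 12.5% at 12w. Trpm5, a cation channel, had log2 fold changes of −4.16 and −6.19, Ucn3, a peptide of mature β-cells, −3.60 and −4.96, and G6pc2, a glucose-6-phosphatase of the β-cell, −3.56 and −3.40, all called. Ffar1, a fatty acid receptor, fell at both ages (−3.03 at each), and so did Sytl4, a granule-docking protein (−2.42 and −3.26). The gene that was higher at both ages was Adcyap1r1, a receptor for the peptide PACAP, from 2.09 ± 0.291 to 5.22 ± 1.17 CPM at 2w and from 0.573 ± 0.0507 to 4.68 ± 0.702 CPM at 12w (SD, n = 3).

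**Figure D5:**
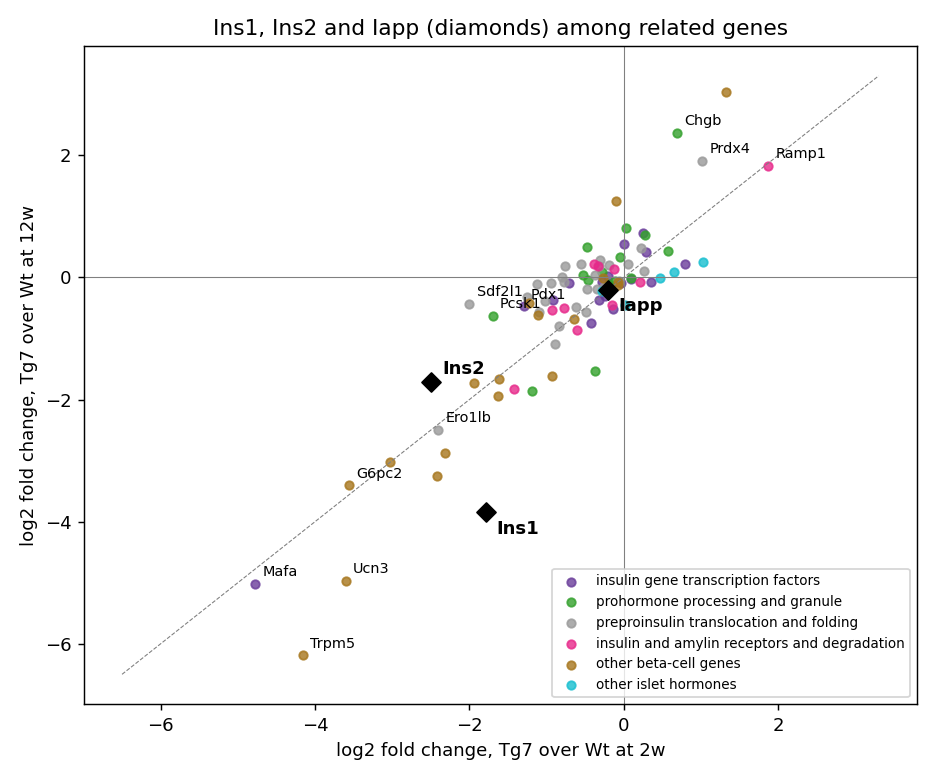
Log2 fold change of Tg7 over Wt at 2w (x axis) and 12w (y axis) for the tested genes of the 6 lists and, as diamonds, Ins1, Ins2 and Iapp; the dashed line marks equal change at both ages. Ins1 lies below the line (−1.79 and −3.85), Ins2 above it (−2.49 and −1.71) and Iapp near the origin.

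The hormone genes of the other islet cells gave the setting for these shares. Gcg had log2 fold changes of 0.46 at 2w and −0.02 at 12w, and Sst, the somatostatin gene of δ-cells, had 0.01 and −0.46, none called. Ppy, the pancreatic polypeptide gene, rose from 3065 ± 891 to 6263 ± 1365 CPM at 2w (1.03, edgeR adjusted p = 0.0475; SD, n = 3) and had 0.26 at 12w. Its call at 2w was lost when Ins1, Ins2 and Iapp were left out of the scaling. Pyy, the peptide YY gene, had 0.65 and 0.09, not called. The summed CPM of 5 α-cell markers, which Gcg dominates, ran from 35364 to 47993 in 2w Wt and from 44599 to 81929 in 2w Tg7 libraries. At 12w it ran from 25523 to 46431 in Wt and from 29828 to 44117 in Tg7 libraries. Sums of 8 acinar markers ran from 9.67 to 11.8 CPM in 2w Wt and from 21.6 to 28.2 CPM in 2w Tg7 libraries, and from 15.3 to 19.6 and from 14.9 to 15.4 CPM at 12w. Sums of 5 macrophage markers were 24.6 to 31.9 CPM in 2w Wt and 34.3 to 86.9 in 2w Tg7 libraries, against 43.5 to 60.5 and 38.1 to 43.1 CPM at 12w. Thus both sums were higher in Tg7 libraries at 2w without overlap, while at 12w the acinar sums overlapped. The 12w macrophage ranges all but met, at 43.1 CPM in Tg7 and 43.5 CPM in Wt libraries. All marker sums were scaled with TMM factors, no other scaling was run for them, and their differences were not tested. Those of 3 PP and epsilon cell markers were 4282 to 6487 CPM in 2w Wt and 7721 to 11472 CPM in 2w Tg7 libraries, and overlapped at 12w. Sums of 6 stellate and fibroblast markers were higher in Tg7 islets without overlap, 338 to 450 against 186 to 263 CPM at 2w and 214 to 245 against 25.6 to 29.6 CPM at 12w. At 12w the sums of 6 endothelial markers (725 to 780 against 341 to 462 CPM) and of 5 ductal markers (697 to 985 against 404 to 593 CPM) were also higher in Tg7 libraries, and no marker of these lists was at 0 in every library. The part of these cells in the changes of Ins1 and Ins2 was not tested.

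Across the 12 libraries, Ins2 followed Iapp (Pearson r = 0.793 of log2 CPM) and Ins1 (r = 0.725), and Ins1 followed Iapp least (r = 0.333). When the group means were taken out, r was 0.975 for Ins1 with Ins2, 0.863 for Ins1 with Iapp and 0.834 for Ins2 with Iapp. Points of the same library share its RNA pool and its scaling, so these values are a description. Among 10411 protein-coding genes, the 5 whose levels were most like Ins1 were Skap1 (r = 0.974), Tpm4, Dnajc24, Pabpc4 and Ucn3 (r = 0.958). For Ins2 they were Cib2 (r = 0.981), Gatad2a, Tmem90a, Rusc1 and Cpeb1 (r = 0.961), and for Iapp Spcs1 (r = 0.973), Nipal2, Cnih, Tspan13 and Hapln4 (r = 0.956). Spcs1, a subunit of the signal peptidase, had log2 fold changes of −0.06 and −0.05 in Tg7 islets and 0.82 and 0.83 with age. It was picked by its correlation over the same libraries, so these values are not a separate likeness to Iapp. Within groups, the genes closest to Ins1 included Ins2, Rplp0, Rpsa and Eif3f, and those closest to Ins2 included Rpl27a, Rpsa, Ins1 and Eif3f. Apart from the insulin genes, those named here encode ribosomal proteins and a translation initiation factor. Those closest to Iapp within groups were Ucp2 (r = 0.973), Fkbp1a, Pabpc1, Rps27 and Cnih.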

How the data were processed

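RNA of isolated islets was sequenced as paired-end reads. The authors trimmed the reads with Trimmomatic, aligned them to mm9 with TopHat2 2.0.11 (version also in the submitters' processing notes) and counted them per Ensembl gene with featureCounts. The deposited values are raw counts, with 11610697 to 17515758 counts per library. No source used here gives the strand setting or the treatment of reads with several alignments.

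The members and gene lists were chosen with earlier results of these data known. Symbols were found for 37205 of 37991 identifiers in the mouse annotation of the same assembly, and where a symbol had several rows the one with the most counts was used. Counts of 15961 genes that passed filterByExpr (minimum count 10, minimum total 15) were scaled with TMM factors and fitted with edgeR 4.0.16 (glmQLFit, glmQLFTest) as 4 group means in 1 model, adjusted by the Benjamini-Hochberg method (threshold 0.05). Adjusted p-values of single genes are from this fit unless DESeq2 is named. Each SE is the size of the log2 fold change over the square root of its F statistic. A prior count of 2 was used for log2 CPM. Ratios and shares were compared by two-sided exact permutation tests. Pairs of replicates of a group differed by more than sampling noise (chi-square per gene from 7.23 to 191), so each library counts once. The 12w Wt pairs differed most, with 73.7, 112 and 191, and the highest value of another group was 43.1 in 2w Tg7. The fit was tested on simulated data.

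Named genes were Ins1, Ins2 and Iapp; for each the 5 genes of highest correlation (average log2 CPM of at least 3), over levels and within groups; in each list up to 4 called genes of largest log2 fold change at each age; and fixed genes (Pdx1, Mafa, Neurod1, Pcsk1, Pcsk2, Cpe, Insr, Calcr, Ide, Gcg, Sst, Ppy, Pyy). Adcyap1r1 was named after its values were seen, not every gene the rule allows is printed, and 1 gene it picks is not reported here. The alternatives were other size factors, other filters, DESeq2 1.42.0, only the groups compared, a replicate block, a pseudocount in the ratios, another denominator of the shares, and each library left out. The difference of the ratio effects between ages and the list counts with age by library size alone were added after the data were seen. Software was R 4.3.3, Python 3.11.15 and matplotlib 3.10.9.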

Additional observations from a re-analysis of the deposited data

Results flagged for a closer look

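The ratio of Ins1 to Ins2 was higher in all Tg7 libraries at 2w and lower in all Tg7 libraries at 12w than in the Wt libraries of the same age. The effect at 12w minus that at 2w was −2.77 on the log2 scale. It was singled out because an exact permutation test within ages gave p = 0.005 (adjusted p = 0.015 over 3 tests). That is the smallest p possible, and the pattern of the libraries fixes it. The test was added after the data were seen, so it adds nothing to that pattern. The corresponding differences were −0.88 for Iapp to Ins2 and 1.89 for Iapp to Ins1.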

How the results depend on the processing

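The Tg7 effects on Ins1 and Ins2 kept their direction and their call at both ages in all 9 other settings and with each of the 12 libraries left out. Their log2 fold changes with a library left out ranged from −2.22 to −1.52 (Ins1, 2w), −4.16 to −3.48 (Ins1, 12w), −2.89 to −2.20 (Ins2, 2w) and −1.996 to −1.45 (Ins2, 12w). The 12w value of Iapp turned positive with library size alone (0.28) and without 12w Wt replicate 1 (0.031), and with a library left out it ranged from −0.33 to 0.03. With age in Wt islets, fits of only the groups compared did not call Ins1 (1.28), Ins2 (1.44) or Iapp (0.92), and library size alone did not call Ins1 (0.86). With a library left out these rises ranged from 0.92 to 1.61 (Ins1), 1.19 to 1.76 (Ins2) and 0.70 to 1.09 (Iapp). The difference of the Tg7 effects on Ins1 was called without a filter (−2.03), with DESeq2 (−2.07) and with the replicate block (−2.17). It was not called in the other 5 of 8 settings, and it ranged from −2.37 to −1.63 with a library left out. The difference of the Tg7 effects on Iapp changed sign with median-ratio factors (−0.0040), DESeq2 (−0.0040) and the replicate block (−0.057), and ranged from −0.13 to 0.24 with a library left out. Within replicate numbers (replicate block), the differences over both ages were 2.08 for Iapp to Ins2 and 2.55 for Iapp to Ins1, not called with 5 pairs. Replicate numbers were not taken as pairs, since same-number residuals of Tg7 and Wt had correlations of −0.0214, −0.167 and −0.0343 at 2w and −0.0894 and −0.0112 at 12w. The block changed no other call of the fold changes of Ins1, Ins2 and Iapp. For the ratios within an age or genotype, no test can fall below 0.05 with or without the block, so their unchanged calls show nothing. The block was not run for shares or for the difference of ratio effects between ages. Other causes of these moves were not tested. Of 216 list counts under other settings, 32 moved by more than 1.5 times. With 3 libraries a group, no single 3 against 3 permutation test can fall below 0.1.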
